A study of Mus musculus with 4 samples.

Results

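Lysosomal proteases and their partners were followed in single cultured B cells by RNA sequencing. The members were 10 genes listed by name: Ctsh, Ctss, Ctsb, Ctsd and Ctsz, which encode cathepsins H, S, B, D and Z; Lgmn (legumain); Ifi30 (the thiol reductase GILT); Lamp1, a protein of the lysosomal membrane; Grn (progranulin); and Acp5, the tartrate-resistant acid phosphatase. Of the 10, 9 were among the 31053 genes of the feature table. Ifi30 was not among them by symbol or by Ensembl identifier and was not analysed here. The cells were wild-type mouse B cells of the B6 strain, purified from spleen by negative selection. They were cultured with the TLR9 agonist CpG B ODN 1668 for 3 days in both groups. One group, Bregs-CpG, received nothing else. The other, Bregs-TLR, also received LPS, PMA, and ionomycin for the last 5 hours. The labels describe 2 replicates of each group and give neither age nor whether replicates came from separate mice or cultures.

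The barcode list holds 19920 cells in 4 libraries numbered 5 to 8, and the matrix holds 35989 columns. The barcodes were placed on the last 19920 columns. No label ties a library number to a sample, so the cells stood as 1 pooled sample, no library could be called Bregs-CpG or Bregs-TLR, and no test between conditions was made. A UMI is a molecular tag that counts 1 captured transcript. The limits of 1000 genes or more per cell and less than 10% of UMIs from mitochondrial genes left 18534 cells, between 4003 and 5621 per library, with 44842982 to 63638158 UMIs per library. Median depth was 8752 and 8785 UMIs per cell in libraries 5 and 6 and 10355 and 10077 in libraries 7 and 8, and the median mitochondrial share was 7.22% and 7.18% against 4.61% and 4.65%. Of the barcode sequences, 29 occurred in more than 1 library. Levels are counts per 1000000 UMIs (CPM), summed over the cells of a library or class, with an exact Poisson 95% interval, which covers counting error only. They are compared between libraries or cells, not between genes, because 3′ counts are not scaled by gene length.

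All 6 B cell markers were present in every library, at a summed level of 7196 and 7463 CPM in libraries 5 and 6 and of 1536 and 1529 CPM in libraries 7 and 8. Cd79a, a chain of the B cell receptor complex, was at 3072, 3239, 1057, and 1033 CPM in libraries 5, 6, 7, and 8. Myeloid cells are rich in lysosomal proteases. Of 12 myeloid markers, 7 had no UMI in any library, Lyz2, C1qa, and S100a8 among them. The summed level of the 12 was 2.41, 3.04, 1.23, and 0.723 CPM, and only 1 cell held 3 or more of their UMIs. Erythroid markers summed to 4.62, 4.32, 219, and 285 CPM, nearly all of it Hbb-bt.

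Proteins taken up by a B cell are cut into peptides in acidic endosomes and lysosomes, where MHC class II molecules are loaded. Cathepsins are made as inactive precursors and become active as the compartment acidifies. Cathepsin S cuts the invariant chain (Cd74) bound to class II molecules in B cells. Cathepsin D is an aspartic protease, cathepsin H an aminopeptidase, cathepsin Z a carboxypeptidase, and legumain cuts after asparagine. GILT reduces disulfide bonds so that antigens can unfold. Many lysosomal genes carry a CACGTG element near their start that the factors TFEB and TFE3 can bind.

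The promoters of 4 members are shown, since the members' levels parted in different ways. Lamp1 differed least between the libraries, Ctsd was 1.48-fold apart at its closest pair, and Acp5 and Grn were far apart. Lgmn (1.20-fold) and Ctsz (1.24-fold) were closer than Ctsd and are not printed. Sequences are from RefSeq on GRCm38.p6, run 5′ to 3′ on the gene's strand, and reach from 250 bases before the start to 50 bases after it. Capitals mark CACGTG, or TCACGTGA where the longer form is present. For Acp5, which has 3 starts in the table, the promoter farthest upstream is printed.
Lamp1 (chr8:13158911-13159210, + strand): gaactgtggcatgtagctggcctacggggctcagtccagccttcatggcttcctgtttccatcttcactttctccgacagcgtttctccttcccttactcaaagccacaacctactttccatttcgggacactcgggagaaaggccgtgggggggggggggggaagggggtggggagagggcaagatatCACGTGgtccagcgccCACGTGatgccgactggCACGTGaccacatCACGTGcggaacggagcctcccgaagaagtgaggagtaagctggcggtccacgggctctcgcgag
Ctsd (chr7:142387778-142388077, - strand): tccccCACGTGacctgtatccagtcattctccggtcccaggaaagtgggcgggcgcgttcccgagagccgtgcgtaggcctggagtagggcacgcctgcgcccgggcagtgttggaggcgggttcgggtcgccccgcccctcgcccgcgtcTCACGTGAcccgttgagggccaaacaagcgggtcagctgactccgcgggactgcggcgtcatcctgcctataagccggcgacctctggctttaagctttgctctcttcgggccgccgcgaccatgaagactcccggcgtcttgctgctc
Acp5 (chr9:22135697-22135996, - strand): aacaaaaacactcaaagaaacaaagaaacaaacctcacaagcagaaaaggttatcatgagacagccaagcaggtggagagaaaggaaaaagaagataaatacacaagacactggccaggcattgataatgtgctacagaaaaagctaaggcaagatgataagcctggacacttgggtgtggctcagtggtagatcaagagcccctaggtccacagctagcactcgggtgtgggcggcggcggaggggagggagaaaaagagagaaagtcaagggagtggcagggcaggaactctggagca
Grn (chr11:102430257-102430556, + strand): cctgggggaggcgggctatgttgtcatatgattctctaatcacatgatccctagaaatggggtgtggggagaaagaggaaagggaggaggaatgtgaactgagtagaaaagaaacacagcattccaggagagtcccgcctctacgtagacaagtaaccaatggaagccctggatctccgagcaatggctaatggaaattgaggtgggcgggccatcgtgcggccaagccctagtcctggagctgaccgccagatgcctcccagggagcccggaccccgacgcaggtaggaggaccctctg

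Of the 10 members, 8 had a promoter in the RefSeq table, with 11 promoters among them. Ctsh and Ctsb had none there. The printed promoters were picked with the members' levels known, and those of Ctsz and Lgmn were left out. Any order among the printed ones therefore cannot show a link between motif and level, which was not tested. The window of Lamp1 held 4 copies of CACGTG, at positions -61, -45, -28, and -15 from the start. That of Ctsd held 2, at -245 and -98, the second within TCACGTGA. One start of Lgmn had a single copy at -49, and that of Ifi30 had 1 within TCACGTGA at -197. Neither form was found in the windows of Acp5, Grn, Ctss, or Ctsz, the last with its closest pair of libraries only 1.24-fold apart. Over all 32851 mouse promoters of this length, 7.15% held CACGTG and 0.974% held TCACGTGA; both motifs read the same on either strand, and every match to the longer one is also a match to the shorter. GAGGAAG, of the type bound by PU.1, was searched on both strands and was found among the members only in Ctss, at -1, against 13.6% of all promoters. TGANTCA, of the AP-1 type, was found in none of the 11 and in 7.81% of all. A match is a run of letters and not a measured binding site, and no match says only that these letters are not in the window.

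Cathepsin H carried one of the widest differences between libraries. Ctsh (chr9:90054152-90076089, + strand, GRCm38) was at 269 CPM (95% interval 264 to 274) in library 5 and at 271 (267 to 276) in library 6. It was at 40.7 CPM (39.2 to 42.3) in library 7 and 39.4 (37.6 to 41.3) in library 8. Libraries 5 and 6 lay together and so did 7 and 8, and the closest pair across, 5 and 7, was 6.61-fold apart. A gene was called apart here when both of libraries 5 and 6 were at least 2-fold above, or below, both of 7 and 8. The pair of libraries 5 and 6 was given with the member list, and libraries 7 and 8 are the remaining ones. Of the 7258 genes with at least 10 CPM in some library, 11.3% were called higher in libraries 5 and 6 and 13.5% lower. With mitochondrial, ribosomal protein, and immunoglobulin genes left out of the denominator, that split became 14.1% and 9.99%. The median difference of the closest pair over all genes moved from -0.12 to 0 on the log2 scale. A gene whose pairs of libraries overlapped counted as 0 in these medians. All 9 measured members passed the limit of 10 CPM, and 3 were called higher in libraries 5 and 6 and 1 lower, with a median log2 difference of the closest pair of 0.56. A gene needed to reach that limit in 1 library only. Acp5, under it in libraries 7 and 8, was tested through libraries 5 and 6. With 4 libraries of unknown origin, these are counts with no test.

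**Figure D1:**
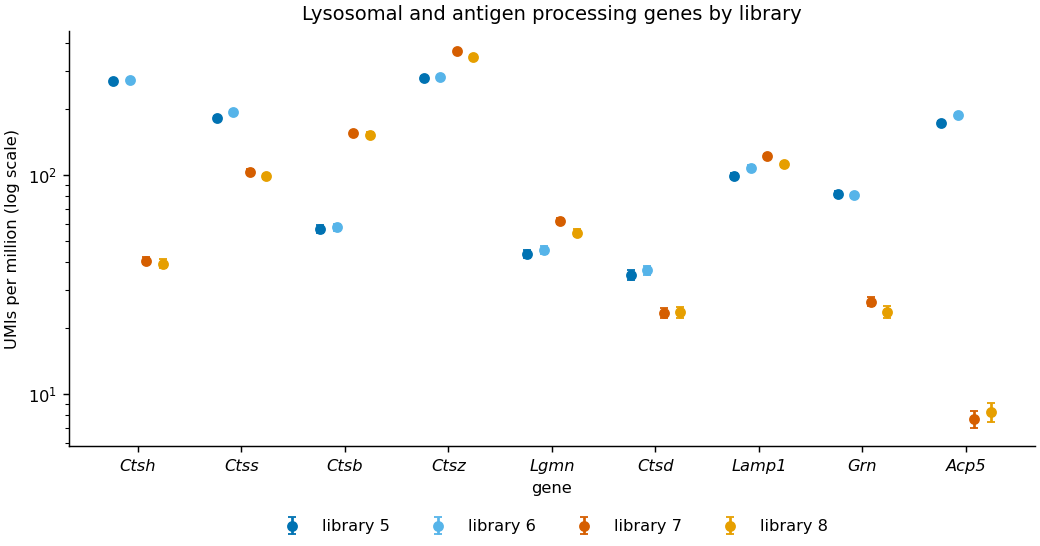
Level of each measured member in libraries 5 to 8, in CPM on a log scale, 1 point per library with its exact Poisson 95% interval, which is often smaller than the point. Acp5, Ctsh, and Grn lie at least 3.06-fold higher in libraries 5 and 6 than in 7 and 8, and Ctsb at least 2.65-fold lower.

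Acp5, a phosphatase best known from osteoclasts and macrophages, was the member furthest apart. Acp5 (chr9:22126727-22135711, - strand) was at 174 CPM (170 to 178) in library 5 and at 189 (185 to 193) in library 6. In libraries 7 and 8 it was at 7.70 CPM (7.03 to 8.41) and 8.25 (7.44 to 9.13), from 490 and 377 UMIs. The closest pair, 5 and 8, was 21.0-fold apart, a log2 difference of 4.39 (4.25 to 4.55). Within the pairs, libraries 5 and 6 differed by 1.09-fold, more than counting error, whereas libraries 7 and 8 did not differ beyond it.

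Grn encodes progranulin, a secreted protein that is also cut into granulins inside lysosomes. Grn (chr11:102430315-102437048, + strand) was at 82.1 CPM (79.5 to 84.8) and 80.9 (78.5 to 83.4) in libraries 5 and 6 and at 26.4 (25.2 to 27.7) and 23.7 (22.3 to 25.2) in libraries 7 and 8. The closest pair, 6 and 7, was 3.06-fold apart. Libraries 5 and 6 overlapped in their intervals, and library 7 was 1.11-fold above library 8, a log2 difference of 0.16 (0.05 to 0.27).

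Cathepsin B, a cysteine protease that also cuts from the ends of peptides, had the opposite order. Ctsb (chr14:63122462-63145923, + strand) was at 56.8 CPM (54.6 to 59.1) and 57.7 (55.7 to 59.8) in libraries 5 and 6, and at 155 (152 to 158) and 153 (149.7 to 157) in libraries 7 and 8. No interval crossed between the pairs, within which the libraries did not differ beyond counting error. The closest pair, 6 and 8, was 2.65-fold apart, a log2 difference of -1.41 (-1.47 to -1.35). Ctsb was the only measured member called lower in libraries 5 and 6.

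The other 5 measured members were not called. Ctss (chr3:95526786-95556403, + strand), the cathepsin that acts on the invariant chain, came nearest, with 182 CPM (178 to 186) and 195 (191 to 199) in libraries 5 and 6 and 104 (101 to 106) and 98.8 (95.9 to 102) in 7 and 8. Its closest pair was 1.76-fold apart, and all 4 libraries differed beyond counting error. Ctsd (chr7:142375911-142388038, - strand) was at 35.0 CPM (33.3 to 36.7) and 36.8 (35.1 to 38.5) against 23.5 (22.3 to 24.7) and 23.7 (22.3 to 25.1), with its closest pair 1.48-fold apart. Both were thus higher in libraries 5 and 6, by less than the limit.

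Ctsz (chr2:174427493-174439039, - strand) and Lgmn (chr12:102394084-102439813, - strand) lay the other way. Ctsz was at 279 CPM (274 to 284) and 281 (276 to 285) in libraries 5 and 6 and at 368 (363 to 373) and 348 (343 to 354) in 7 and 8. Lgmn was at 43.6 CPM (41.7 to 45.5) and 45.5 (43.7 to 47.4) against 61.6 (59.7 to 63.6) and 54.7 (52.6 to 56.9). The closest pairs were 1.24-fold and 1.20-fold apart, so that the cysteine proteases did not share a direction: Ctsh and Ctss were higher in libraries 5 and 6, and Ctsb, Ctsz, and Lgmn were higher in 7 and 8. Lamp1 (chr8:13159161-13175338, + strand), at 99.4 CPM (96.5 to 102), 108 (105 to 111), 122 (119 to 125), and 112 (109 to 115) in libraries 5 to 8, differed least. Its libraries 6 and 8 were 1.04-fold apart, a log2 difference of -0.05 (-0.10 to 0.01).

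For scale, members differed by 1.01-fold to 1.09-fold between libraries 5 and 6 and by 1.01-fold to 1.13-fold between libraries 7 and 8. The median absolute difference of all genes tested was 1.04-fold and 1.06-fold in these pairs, and 1.49-fold to 1.54-fold between a library of one pair and a library of the other. Depth, mitochondrial share, and the B cell and erythroid marker sums given above were divided in the same way as Acp5, Ctsh, Grn, and Ctsb. Their part in these differences was not tested. Depth and the limit on mitochondrial share were only varied among the alternative settings given at the end.

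The rest of the lysosome was read through gene lists, which were chosen with earlier results of these data known. Of all genes tested, 11.3% were called higher in libraries 5 and 6 and 13.5% lower, and each count stands beside these shares. Other cathepsins numbered 9, of which 4 reached 10 CPM and 1 was called. This was Ctso (cathepsin O), at 46.7, 51.4, 12.3, and 12.5 CPM in libraries 5, 6, 7, and 8. Among 6 protease inhibitors, 5 were tested, none was called higher in libraries 5 and 6, and 2 were called lower. Serpinb6b, a serpin of the cytosol, was at 2.65 and 1.82 CPM against 92.3 and 94.4, a 34.8-fold difference of the closest pair. Serpinb9, which inhibits granzyme B, was at 4.33 and 4.34 CPM against 31.1 and 34.4. Both reached the limit of 10 CPM only in libraries 7 and 8, where they were high. They belong to a multigene family whose near copies may share reads.

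Among 13 lysosomal membrane genes, 6 were tested, 3 were called higher in libraries 5 and 6, and 1 was called lower. The shares over all genes tested were 11.3% and 13.5%. Laptm5, which promotes lysosomal breakdown of the B cell receptor, was at 417, 432, 69.9, and 68.2 CPM. Tmem106b and Scarb2, the carrier of β-glucocerebrosidase, were 4.07-fold and 2.27-fold higher in libraries 5 and 6. The tetraspanin Cd63 was the one called lower, at 0.781 and 1.03 CPM against 40.1 and 38.8. Beside the nearly level Lamp1, the called genes of this list lay on both sides, and the lower side was Cd63 alone. Cd63 reached the limit of 10 CPM only in libraries 7 and 8, where it was high, and Scarb2 only in libraries 5 and 6.

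Hydrolases and their cofactors numbered 31, of which 20 were tested, 7 were called higher in libraries 5 and 6, and 1 was called lower. Smpd1 (acid sphingomyelinase) and Man2b1 (lysosomal α-mannosidase) were 3.30-fold and 3.03-fold higher, whereas Gla (α-galactosidase A) was 3.60-fold lower. Gla reached the limit of 10 CPM only in libraries 7 and 8, and Smpd1 only in libraries 5 and 6. The median log2 difference of the closest pair was 0.50 in this list. Over all genes tested, 11.3% were called higher and 13.5% lower.

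Genes that acidify and build the compartment lay on both sides of 0. Of 16 V-ATPase genes, which encode the proton pump, 15 were tested and none was called in either direction. Their median was -0.0029, and they reached from Atp6v1h, 1.68-fold lower in libraries 5 and 6, to Atp6v1a, 1.61-fold higher, both named after their values were seen. Of 10 lysosome regulators, 6 were tested and none was called, with a median of -0.0067 and Mtor 1.70-fold lower. Tfeb, named like Mtor after its values were seen, was at 31.0, 32.9, 23.9, and 22.8 CPM. Of 10 genes for sorting to lysosomes, 9 were tested. Gga2, an adaptor at the Golgi, was called higher in libraries 5 and 6 at 2.04-fold. Igf2r, the mannose-6-phosphate receptor that carries new hydrolases, and Gga3 were called lower at 2.27-fold and 2.04-fold. These 2 reached the limit of 10 CPM only in libraries 7 and 8. Of all genes tested, 11.3% were called higher in libraries 5 and 6 and 13.5% lower.

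Class II presentation genes, the partners of these proteases, had the largest share of calls among the lists. All 11 were tested, 9 were called higher in libraries 5 and 6, and none was called lower, with a median log2 difference of 1.75. Over all genes tested, 11.3% were called higher and 13.5% lower. This list too was chosen with earlier results of these data known, so its rank is a description only. Ciita, the master activator of class II transcription, was at 72.8 and 78.6 CPM in libraries 5 and 6 and at 2.47 and 3.04 CPM in 7 and 8, 23.9-fold apart. H2-DMa, a chain of the peptide exchange factor, was at 198, 205, 18.5, and 19.8 CPM. H2-DMb2, a partner chain that may share reads with its close copy H2-DMb1, was 19.4-fold apart. H2-Oa, a chain of the H2-DM inhibitor, was 9.32-fold apart. Ciita, H2-DMb1, H2-DMb2, and H2-Oa reached the limit of 10 CPM only in libraries 5 and 6, where they were high. The genes not called, named after their values were seen, were Cd74, the invariant chain, at 6858, 7135, 5915, and 5831 CPM, and Sppl2a, an intramembrane protease that clears its last fragment, at 34.5, 35.6, 45.8, and 45.5 CPM.

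**Figure D2:**
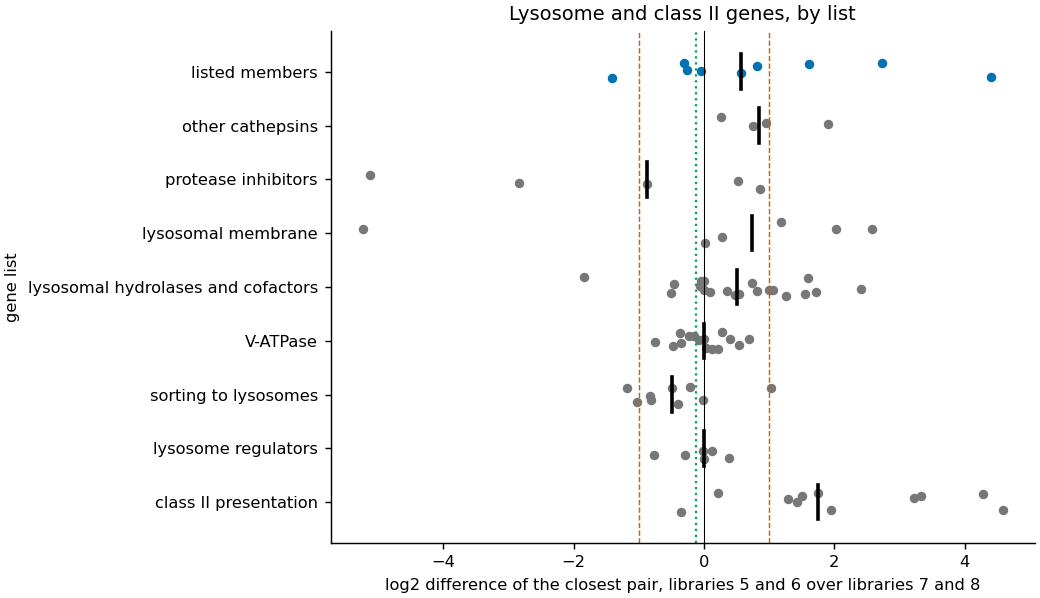
Log2 difference of the closest pair of libraries, 5 and 6 over 7 and 8, for each tested gene of each list, set to 0 where the pairs overlap. Black bars are list medians, dashed lines the 2-fold limits, and the dotted line the median of all genes tested (-0.12). Class II genes lie mostly beyond the upper limit (median 1.75), V-ATPase genes on both sides of 0 (15 genes, none beyond a limit), and the members on both sides.

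The members were next compared within libraries 5 and 6 between cells with 5 or more UMIs of Ccl3 plus Ccl4, chemokines made by activated B cells, and cells with fewer. Library 5 had 126 chemokine-high and 4070 chemokine-low cells, and library 6 had 128 and 4586. Grn was higher and Acp5 lower in chemokine-high cells of both libraries. These were the only members called, a call requiring that both libraries be past 1.5-fold the same way with intervals that exclude 0. Of the 7007 genes tested, 6.18% were called higher and 2.3% lower.

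Grn was at 151 CPM (136 to 168) in chemokine-high and 78.3 (75.7 to 81.0) in chemokine-low cells of library 5, a log2 ratio of 0.95 (0.79 to 1.11). In library 6 it was at 125 CPM (111 to 141) against 78.9 (76.4 to 81.4), a log2 ratio of 0.67 (0.49 to 0.84). The chemokine-low cells of the libraries overlapped in their intervals, and the chemokine-high cells lay above them in both. Among cells of 10000 to 20000 UMIs alone, a range chosen after seeing the data, the log2 ratio was 0.97 in library 5 and 0.47 in library 6, so that Grn was no longer called.

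Acp5 went the other way. It was at 90.0 CPM (78.3 to 103) in chemokine-high and 178 (174 to 182) in chemokine-low cells of library 5, a log2 ratio of -0.99 (-1.19 to -0.79). In library 6 it was at 95.3 CPM (82.9 to 109) against 193 (189 to 197), a log2 ratio of -1.02 (-1.22 to -0.82). Among cells of 10000 to 20000 UMIs the ratios were -1.32 and -1.34. Thus Grn and Acp5, both higher in libraries 5 and 6 than in 7 and 8, differed in opposite directions between the cell classes.

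Cathepsins Z and H differed by less than 1.5-fold, with intervals that excluded 0 in both libraries. Ctsz was at 357 CPM (334 to 383) in chemokine-high and 275 (270 to 280) in chemokine-low cells of library 5, and at 357 (333 to 383) against 277 (273 to 282) in library 6, with log2 ratios of 0.38 (0.28 to 0.48) and 0.37 (0.26 to 0.47). Ctsh was at 214 CPM (196 to 234) against 272 (267 to 277) in library 5 and at 226 (207 to 247) against 274 (269 to 278) in library 6, with log2 ratios of -0.34 (-0.48 to -0.21) and -0.28 (-0.41 to -0.15). Lamp1 had log2 ratios of 0.29 (0.11 to 0.46) and 0.22 (0.04 to 0.40). For Ctsb, Ctsd, and Lgmn the intervals included 0 in both libraries. Ctss had log2 ratios of -0.17 (-0.32 to -0.02) and -0.11 (-0.25 to 0.04), and with each cell thinned to 3000 UMIs, and the classes set again on the thinned counts, which gave 45 and 39 chemokine-high cells, 0.30 (-0.25 to 0.80) and 0.59 (0.06 to 1.07).

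**Figure D3:**
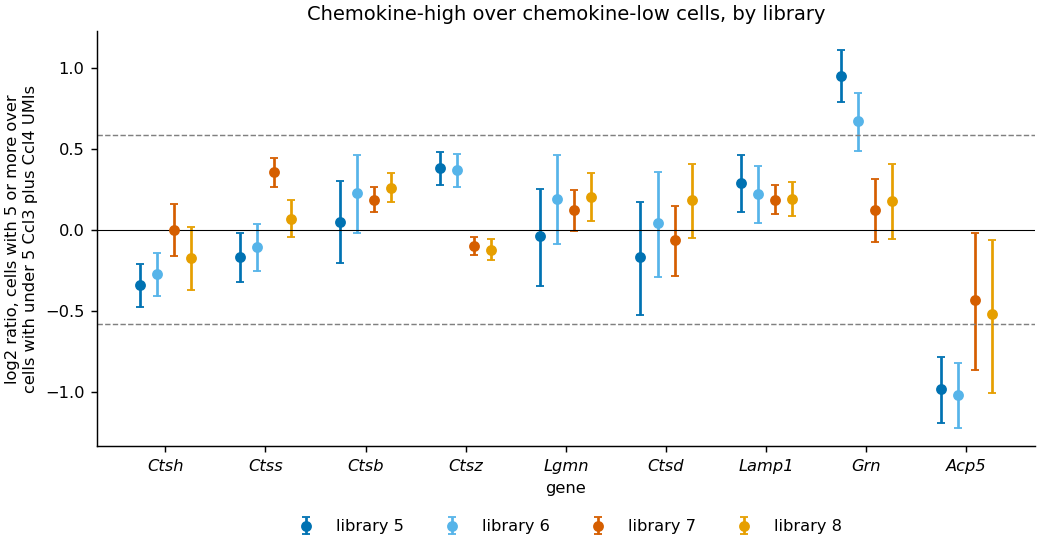
Log2 ratio of CPM, cells with 5 or more over cells with under 5 UMIs of Ccl3 plus Ccl4, for each measured member in libraries 5 to 8, with exact conditional 95% intervals; dashed lines are the 1.5-fold limits. In libraries 5 and 6 Grn lies above the upper limit (0.95 and 0.67) and Acp5 below the lower limit (-0.99 and -1.02), whereas in libraries 7 and 8 no member lies past a limit.

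The cell classes also differed in depth and markers. Chemokine-high cells had medians of 14848 and 13921.5 UMIs in libraries 5 and 6 against 8646.5 and 8704 in chemokine-low cells, and mitochondrial shares of 6.61% and 6.87% against 7.24% and 7.20%. The 6 B cell markers summed to 5178 and 5365 CPM against 7307 and 7557. The 6 T cell markers, 3 of them with no UMI in any library, summed to 3.86 and 3.15 CPM against 0.329 and 0.465. Each of the 6 was under 1 CPM in every library, and no cell held 3 or more of their UMIs, so these sums rest on few UMIs. The 12 myeloid markers summed to 2.14 and 3.15 CPM against 2.42 and 3.04. Proliferating cells, with 3 or more UMIs of Mki67 plus Top2a, made up 19.05% and 19.5% of chemokine-high cells against 7.71% and 8.79% of chemokine-low cells. With each cell thinned to 3000 UMIs, which left out 5 and 8 shallower chemokine-low cells, the shares were 5.56% and 10.2% against 4.01% and 4.70%. Cells with 3 or more UMIs of Il10 made up 7.14% and 5.47% against 1.47% and 0.916%, and the level of Il10 was 45.4 and 31.0 CPM against 12.0 and 10.2. Thinned, the Il10 shares were 2.38% and 0% against 0.0984% and 0.131%. With proliferating and Jchain-high cells left out, the log2 ratios were 1.03 and 0.67 for Grn and -1.22 and -1.06 for Acp5. The part of depth, of Il10-positive cells, and of the B and T cell markers in the called differences was not tested further.

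Finer steps of the chemokine count showed the same order. Cells of library 5 with 0, 1 to 4, 5 to 19, and 20 to 99 UMIs of Ccl3 plus Ccl4 had Grn at 76.1, 98.0, 144, and 162 CPM, and those of library 6 at 76.5, 99.7, 113, and 159.6 CPM. Acp5 was at 182, 141, 101, and 70.2 CPM over the steps in library 5 and at 198, 151, 97.3, and 86.5 CPM in library 6. The difference thus already lay between cells with no chemokine UMI and cells with 1 to 4, on the low side of the limit of 5. Intervals of the last 2 steps overlapped for both genes in both libraries, at 78 and 38 cells in library 5 and 91 and 28 in library 6. For Grn in library 6, the intervals at 1 to 4 (91.3 to 109) and 5 to 19 UMIs (97.1 to 131) overlapped too. Median depth climbed with the steps too, from 8508 to 15428.5 UMIs in library 5 and from 8531.5 to 15627 in library 6.

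Ctsz and Ctsh followed the steps with smaller slopes. Ctsz was at 272, 297, 316, and 385 CPM in library 5 and at 274, 303, 336, and 408 CPM in library 6. Ctsh was at 275, 246, 223, and 205 CPM and at 275, 260.1, 231, and 215 CPM. The values moved one way at every step in both libraries, upward for Ctsz and downward for Ctsh.

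**Figure D4:**
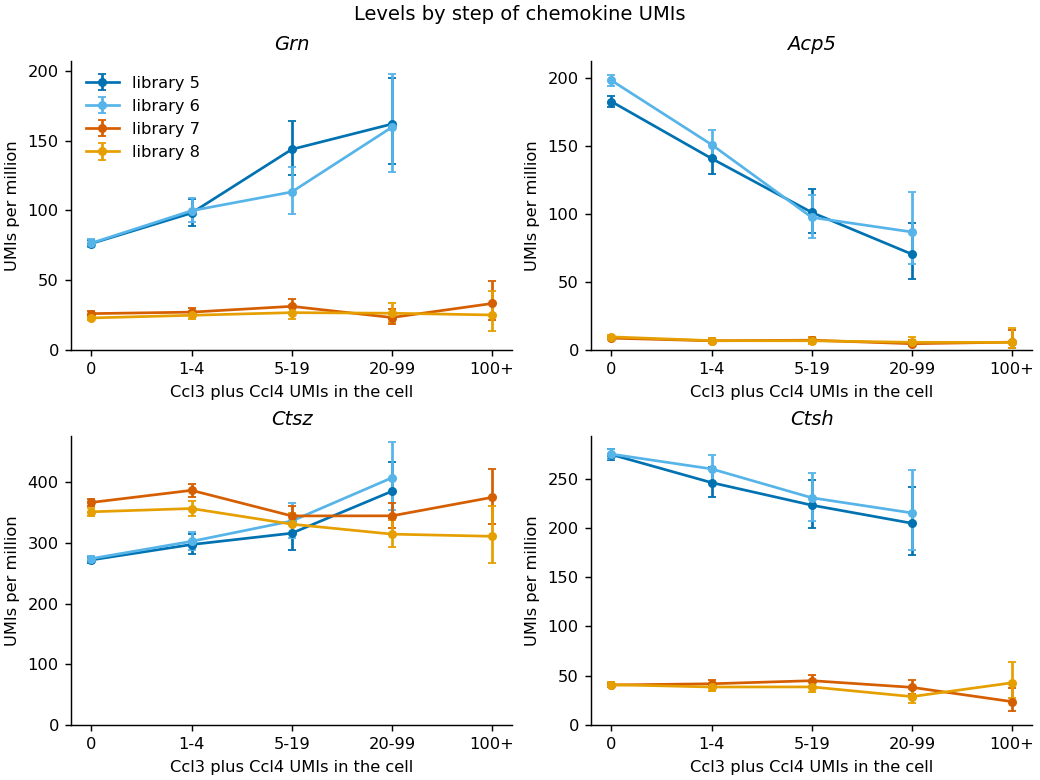
Level of Grn, Acp5, Ctsz, and Ctsh in CPM by the UMIs of Ccl3 plus Ccl4 in the cell, 1 line per library, with exact Poisson 95% intervals; steps of under 20 cells are left out. In libraries 5 and 6 Grn and Ctsz are higher and Acp5 and Ctsh lower at each further step, though intervals of neighbouring steps often overlap. In libraries 7 and 8 Grn stays between 22.7 and 33.1 CPM. Acp5 goes from 8.46 to 5.52 CPM in library 7, not down at every step, and from 9.37 to 5.33 CPM in library 8. Its last steps there rest on 4 and 3 UMIs.

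Libraries 7 and 8 held more chemokine-high cells, 673 and 512, and other values for the members. Grn had log2 ratios of 0.12 (-0.07 to 0.31) and 0.18 (-0.05 to 0.41), with both intervals across 0 and below those of libraries 5 and 6. Acp5 was again lower in chemokine-high cells, at 5.92 against 7.997 CPM in library 7 and 6.05 against 8.67 in library 8, log2 ratios of -0.43 (-0.87 to -0.02) and -0.52 (-1.01 to -0.06). Ctsz had ratios of -0.10 (-0.15 to -0.04) and -0.12 (-0.19 to -0.06), the reverse of its sign in libraries 5 and 6. Ctsb had ratios of 0.19 (0.11 to 0.26) and 0.26 (0.17 to 0.35), and Lamp1 of 0.19 (0.10 to 0.27) and 0.19 (0.09 to 0.29), the latter near those of libraries 5 and 6. Ctss had a ratio of 0.35 (0.26 to 0.45) in library 7 and 0.07 (-0.05 to 0.18) in library 8. Whether the ratios differ between libraries was not tested.

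Among the other lists, 3 genes were called by chemokine class. Serpinb6b was called higher in chemokine-high cells, at 26.6 against 1.34 CPM in library 5 and 8.09 against 1.54 in library 6, from 62 and 18 UMIs. Glb1 (β-galactosidase) was called higher, with log2 ratios of 0.71 (0.34 to 1.06) and 0.67 (0.28 to 1.03), and Smpd1 was called lower, with -0.97 (-1.74 to -0.30) and -0.72 (-1.42 to -0.10). Serpinb6b reached the limit of 10 CPM only in chemokine-high cells of library 5, and Smpd1 only in chemokine-low cells, each where it was high. None of the 4 tested other cathepsins, 6 membrane genes, 15 V-ATPase genes, 8 sorting genes, 6 regulators, or 11 class II genes was called. Calls were few over all genes tested too, at 6.18% higher and 2.3% lower. Below the 1.5-fold limit, 9 of the 11 class II genes were lower in chemokine-high cells with intervals below 0 in both libraries, against 8.56% of all genes tested, called ones included. H2-Ob had log2 ratios of -0.55 and -0.50, H2-DMa of -0.40 and -0.41, and Ciita of -0.50 and -0.32. The same held for Laptm5, at -0.22 and -0.24, Tmem106b, at -0.53 and -0.56, Ctso, at -0.41 and -0.67, and Man2b1, at -0.42 and -0.42, all 7 genes named after their values were seen. Among the 19 tested hydrolases and cofactors, 4 had both intervals above 0 and 4 had both below, where 15.4% of all genes tested had both above. The nearer of both log2 ratios, set to 0 where the libraries differed in sign, had a median of -0.22 over the class II genes and of 0 over all genes tested. With library 5 or library 6 alone, the median over all genes tested was 0.044 or 0.043.

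The members also varied with the kind of cell. Proliferating cells, defined by 3 or more UMIs of Mki67 plus Top2a, numbered 338, 420, 519, and 381 in libraries 5, 6, 7, and 8. They were set beside cells that were neither proliferating nor Jchain-high. The class is set by a UMI count, and its cells were deeper, with medians of 17468, 17919.5, 15339, and 15495 UMIs against 8449, 8492, 10033, and 9772. Their median mitochondrial share was 6.14% and 6.28% against 7.30% and 7.28% in libraries 5 and 6, and 5.02% and 5.00% against 4.56% and 4.602% in libraries 7 and 8. The part of depth in the values below was not tested. Lgmn had log2 ratios of -0.64 (-0.85 to -0.43) and -0.38 (-0.56 to -0.21) in libraries 5 and 6 and of 0.65 (0.54 to 0.76) and 0.47 (0.32 to 0.61) in libraries 7 and 8. Legumain was thus lower in proliferating cells of one pair of libraries and higher in those of the other, with no interval across 0. Ctsb had ratios of -0.17 (-0.33 to -0.01) and -0.02 (-0.17 to 0.12) in libraries 5 and 6, and of 0.40 (0.32 to 0.47) and 0.48 (0.39 to 0.56) in 7 and 8.

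In libraries 5 and 6 proliferating cells had less Ctsh, Ctss, and Acp5. The log2 ratios were -0.44 and -0.44 for Ctsh, -0.59 and -0.51 for Ctss, and -0.60 and -0.60 for Acp5. In libraries 7 and 8 the ratios of Ctsh were 0.03 and 0.14 and those of Acp5 0.24 and -0.37, all with intervals across 0. Ctss had ratios of 0.15 (0.06 to 0.25) in library 7 and 0.11 (-0.01 to 0.23) in library 8, opposite in sign to libraries 5 and 6. Ctsz was slightly lower in proliferating cells of all 4 libraries, with ratios of -0.15, -0.11, -0.30, and -0.37 and no interval across 0.

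Cells with 20 or more UMIs of Jchain, the joining chain of secreted IgM made by antibody-secreting cells, numbered 31 in library 6 and 45 in library 7, and libraries 5 and 8 had under 20 such cells and were left out. Ctsd was the member furthest apart in the same direction in both, at 131 CPM (101 to 168) against 36.7 (34.9 to 38.6) in library 6 and 69.7 (51.4 to 92.4) against 22.3 (21.1 to 23.6) in library 7. The log2 ratios were 1.84 (1.45 to 2.20) and 1.64 (1.20 to 2.06). Lgmn, at 1.22 (0.80 to 1.61) and 0.67 (0.28 to 1.03), and Ctsb, at 0.87 (0.44 to 1.27) and 0.64 (0.41 to 0.87), were higher as well, as was Ctsz at 0.33 and 0.80. For Lamp1 both intervals included 0.

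Acp5 took opposite signs in these cells. It was at 96.4 CPM (70.8 to 128) against 201 (197 to 205) in library 6 and at 27.6 (16.6 to 43.1) against 7.30 (6.59 to 8.05) in library 7, the latter from 19 UMIs. The log2 ratios were -1.06 (-1.51 to -0.65) and 1.92 (1.17 to 2.58). Grn was lower in library 6, at -1.58 (-2.49 to -0.80) from 13 UMIs, and at -0.41 (-1.28 to 0.35) in library 7. Ctsh was at -1.24 (-1.63 to -0.87) and -0.28 (-0.95 to 0.30). Immunoglobulin genes took 23.9% and 26.1% of the UMIs of these cells against 1.82% and 0.411% in the others. With those genes left out of the denominator, a choice made after seeing the data, the log2 ratios were 2.21 and 2.07 for Ctsd, 1.59 and 1.10 for Lgmn, and 1.23 and 1.08 for Ctsb. They were -0.87 (-1.26 to -0.50) and 0.15 (-0.51 to 0.74) for Ctsh, -1.21 (-2.12 to -0.43) and 0.03 (-0.85 to 0.78) for Grn, and 0.33 (-0.09 to 0.72) and 0.33 (-0.01 to 0.65) for Lamp1. The signs of Ctsh and Grn in library 7 and of Lamp1 in both libraries thus depended on the denominator, and their intervals included 0 either way. Ctss moved from -0.36 (-0.70 to -0.04) to 0.01 (-0.33 to 0.33) in library 6 and from 0.07 (-0.28 to 0.40) to 0.50 (0.15 to 0.83) in library 7. The intervals cover counting error only, and with 1 library of each pair there is no check by a partner.

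**Figure D5:**
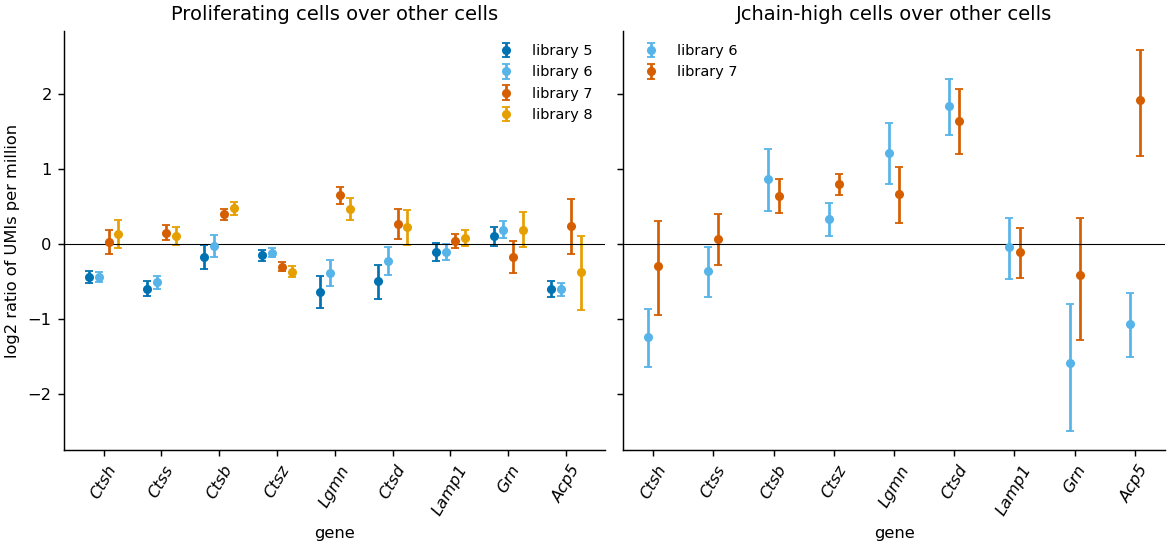
Log2 ratio of CPM for each measured member, proliferating cells (left) and Jchain-high cells (right) over cells that are neither, with exact conditional 95% intervals, 1 color per library. Lgmn and Ctsb lie at or below 0 in proliferating cells of libraries 5 and 6 and above 0 in those of libraries 7 and 8, and Ctsd is the highest of the ratios shared in sign by Jchain-high cells of libraries 6 and 7 (1.84 and 1.64).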

How the data were processed

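The deposited data are the authors' UMI counts per gene and cell from Chromium Single Cell 3′ v3 libraries. The study's methods and the submitters' processing notes name Cell Ranger (version 3.1.0), the mouse genome mm10 with Ensembl annotation, and Cell Ranger aggr, which evens out read depth between libraries. The counts were not imputed or scaled further in the deposited matrix. The barcode list is shorter than the matrix. The shift in mean expression at the column where library 5 or 7 would start was at percentile 99.43 and 100 of all columns with the barcodes on the last columns, at 51.99 and 91.9 for libraries 6 and 8, and at most 86.65 with the barcodes on the first columns. The 16069 earlier columns were not used. No label maps a library to a sample.

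UMIs were summed over the 18534 passing cells of a library or class and divided by their total (Python 3.11.15, SciPy 1.17.1). Intervals at 95% were exact Poisson for levels and exact conditional for ratios. They cover counting error only and contain no variation between cells, mice or cultures. Genes with at least 10 CPM in 1 of the sums compared were tested against the fold limits of 2 (libraries) and 1.5 (chemokine classes; Ccl3 and Ccl4 left out). No cell was removed as a doublet, and no doublet caller was run. Genes were found by symbol, and no listed gene or marker was among the 35 symbols that occur more than once. Scaling alternatives used edgeR (version 4.0.16) and DESeq2 (version 1.42.0) for factors only. The members and the gene lists were chosen with earlier results of these data known. All members were named, and of each other list up to 4 called genes with the largest fold. The values of 1 gene that this rule would name are not reported here. The split by chemokine UMIs was given with the members. Cells by Il10, the range of 10000 to 20000 UMIs, the denominator without immunoglobulin genes, and counts of intervals that exclude 0 were added after seeing the data. Gene positions are from GENCODE vM21 on GRCm38, which is not the release counted on. The scripts' calls were tried on simulated sums with counting error only, as a check of the code. Variation between cells, mice or cultures was not simulated, so this cannot show how far the calls hold in these data.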

Additional observations from a re-analysis of the deposited data

How the results depend on the processing

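Counts of members apart between libraries stayed within 1.5 times of the main counts under 17 alternatives. Ctsh (log2 2.46 to 2.90), Ctsb (-1.46 to -1.09), Grn (1.29 to 1.78), and Acp5 (3.91 to 4.56) were called in 17 of 17. Some of these alternatives could not remove their calls. Leaving out a library in turn can only keep or widen the closest pair. The fold limit of 1.5 and no filter on genes only loosen the rule. Leaving out cells with 3 or more myeloid marker UMIs removed only 1 cell, in library 6, and was hardly a check. Ctss (0.63 to 1.00) was called in 1, the fold limit of 1.5. No member changed sign between libraries. By chemokine class, with 1 member higher and 1 lower in the reported values, the counts changed in 4 of 18 alternatives. At least 1500 genes and under 5% mitochondrial UMIs left 9 and 7 chemokine-high cells and gave 0 higher (Grn with an interval across 0 in library 5) and 2 lower (Acp5 and Ctsh). Thinning to 3000 UMIs per cell, chemokines included, left 45 and 39 such cells and gave 2 higher (Grn and Ctsz), and Ctss, not called, turned from -0.17 and -0.11 to 0.30 and 0.59. The fold limit of 2 gave 0 higher and 0 lower. Cells of 10000 to 20000 UMIs gave 0 higher. Of all genes tested, 0.96% were called higher and 0.78% lower under the limits of 1500 genes and 5%. These shares were 3.38% and 1.31% when thinned and 1.56% and 0.30% at the fold limit of 2. Among cells of 10000 to 20000 UMIs they were 5.25% and 3.14%. Acp5 was called in 17 of 18 alternatives (-1.50 to -0.94) and Grn in 15 (0.47 to 0.96). With library 5 or 6 left out, both were called in the one that remained. This had to follow, because the rule already needs each library to pass on its own. Those alternatives among the 18 are therefore no check, and leaving out the filter on genes could not remove a call either. The alternative by myeloid markers, which removed only 1 cell, was hardly a check here too.

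Over all genes, 821 were called higher and 978 lower between libraries, against 2548 and 2090 with no filter on genes and 1316 and 1987 at the fold limit of 1.5. By chemokine class 433 were called higher and 161 lower. These became 80 and 65 under the stricter cell filter, 251 and 97 when thinned, and 109 and 21 at the fold limit of 2. They became 652 and 396 as a mean over cells (called by fold alone), 569 and 356 without the 5% of cells with the most UMIs, and 519 and 318 with a limit of 5 chemokine UMIs per 10000. With 1 library alone they were 642 to 656 and 336 to 341. The causes of these changes were not tested beyond the numbers of cells given. No paired analysis was possible because the barcodes carry no replicate number and no result comes from a test. The precision of Acp5 in libraries 7 and 8 and of all members in Jchain-high cells is limited by their few UMIs.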

Other observations

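Cells with Il10, which encodes a cytokine used as a marker of regulatory B cells, were looked at after the other values had been seen. Cells with 3 or more UMIs of Il10 numbered 69, 49, 2454, and 1739 in libraries 5, 6, 7, and 8 and were set beside the 3882, 4363, 1671, and 1135 cells with none. Ctsh and Acp5 were lower in the Il10-positive cells of all 4 libraries. The log2 ratios of Ctsh were -0.65 (95% interval -0.86 to -0.45), -0.68 (-0.91 to -0.45), -0.34 (-0.47 to -0.21), and -0.45 (-0.61 to -0.29). Those of Acp5 were -0.71 (-0.98 to -0.46), -0.64 (-0.92 to -0.37), -0.46 (-0.77 to -0.15), and -0.53 (-0.88 to -0.18).

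The other proteases were less uniform over these cells. Ctsb had ratios of 0.01 (-0.37 to 0.37), 0.47 (0.11 to 0.81), 0.30 (0.23 to 0.38), and 0.39 (0.30 to 0.48). Ctsz was higher in Il10-positive cells of libraries 5 and 6, at 0.33 and 0.52, and slightly lower in those of 7 and 8, at -0.05 and -0.11. Lgmn had ratios of -1.003 (-1.64 to -0.44) and -0.76 (-1.39 to -0.19) in libraries 5 and 6, from 25 UMIs each in the Il10-positive cells, and of -0.18 and 0.04 in libraries 7 and 8. The cells were chosen by a UMI count, which depth also raises. Median depth was 13170, 13404, 11183.5, and 11136 UMIs against 8566, 8593, 9530, and 9213 in libraries 5, 6, 7, and 8. Il10-positive cells also had more Ccl4, at 657, 987, 394, and 370 CPM against 40.1, 34.6, 266, and 199. These ratios therefore overlap the split by chemokines. The part of depth and of chemokine-high cells in them was not tested.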
